A study of Mus musculus with 8 samples.

Results

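The actin and tropomyosin genes of mouse diaphragm were followed on 23 probe sets, of 22690 on the array, that the platform annotation assigns to exactly 1 of 9 genes, among 12394 genes in all. These genes are Acta1, Actc1, Acta2, Actb, Actg1, Tpm1, Tpm2, Tpm3 and Tpm4. A probe set is the group of short probes that reports 1 transcript or a group of related transcripts. Of the 23 probe sets, 19 were bright enough to be tested, 1 Acta2 probe set was too dim, and 3 Actb probe sets are Affymetrix controls that are described here by value. RNA came from the diaphragm of dy/dy mice and of mice labelled as controls for dy/dy. The dy/dy mouse is a spontaneous mutant deficient in laminin α2 of the basement membrane of muscle fibres, with a severe muscular dystrophy. The labels give 8 weeks for both groups and name no strain, sex or control genotype. Each group had 4 arrays, and each array carried muscle pooled from 3 mice, so 12 mice per group. Pooling hides the spread between single mice, and the pool is the replicate.

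Actin monomers polymerise into thin filaments, and tropomyosin dimers lie along each filament and, with the troponins, control access of myosin to it. Striated fibres use skeletal actin, from Acta1, in adult skeletal muscle and cardiac actin, from Actc1, in heart and in fetal and regenerating skeletal fibres. Acta2 encodes the smooth muscle actin of vessel walls and myofibroblasts. Actb and Actg1 encode the β and γ actins of the cytoskeleton, present in every cell. Tpm1 and Tpm2 supply the main tropomyosins of fast and mixed fibres, Tpm3 that of slow fibres, and Tpm4 a mainly cytoskeletal form. Tpm1, Tpm2 and Tpm3 also make cytoskeletal forms by alternative promoters and splicing, and the sources do not tie a probe set to 1 product. The muscle class below therefore means Acta1, Actc1, Acta2, Tpm1, Tpm2 and Tpm3, and the cytoplasmic class Actb, Actg1 and Tpm4.

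Serum response factor binds the CArG box and is a known regulator of actin genes, so the CArG boxes of the actin promoters are shown for context. The table of RefSeq promoters (GRCm38.p6) used here was matched for 8 of the 9 genes, Actb being the one not matched, which gave 9 promoters with 2 for Tpm3. The 250 bases before each annotated transcription start were searched on both strands for TATAA and for the strict CArG box. The strict box is CCWWWWWWGG, where each W is A or T. The strict CArG box was present in 3 of the 9, those of Acta1, Actc1 and Actg1, and in 1.47% of all 32851 promoters in that table. Looser forms, with a G or C among the W bases, were not counted, such as ccctatatgg in the Acta2 and Actc1 promoters. TATAA was present in 1 of the 9, that of Acta1, and in 22.8% of all promoters. It did not overlap the CArG box. The 3 promoters with a strict CArG box are printed on the gene's own strand, which is the minus strand for all 3, with that box and any TATAA in capitals. The box begins 73 bases before the start in Acta1, 47 in Actc1 and 90 in Actg1. A match is a description of the letters only.
Acta1, chr8:123894776-123895025: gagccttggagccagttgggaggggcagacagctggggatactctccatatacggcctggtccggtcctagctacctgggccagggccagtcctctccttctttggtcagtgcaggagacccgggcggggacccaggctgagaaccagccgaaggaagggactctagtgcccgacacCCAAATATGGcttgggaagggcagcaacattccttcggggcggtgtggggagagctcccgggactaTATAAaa
Actc1, chr2:114052876-114053125: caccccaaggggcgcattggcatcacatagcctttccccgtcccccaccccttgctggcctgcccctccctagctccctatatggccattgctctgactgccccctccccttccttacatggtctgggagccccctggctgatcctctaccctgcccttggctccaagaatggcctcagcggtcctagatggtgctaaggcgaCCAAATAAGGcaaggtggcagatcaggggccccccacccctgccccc
Actg1, chr11:120348496-120348745: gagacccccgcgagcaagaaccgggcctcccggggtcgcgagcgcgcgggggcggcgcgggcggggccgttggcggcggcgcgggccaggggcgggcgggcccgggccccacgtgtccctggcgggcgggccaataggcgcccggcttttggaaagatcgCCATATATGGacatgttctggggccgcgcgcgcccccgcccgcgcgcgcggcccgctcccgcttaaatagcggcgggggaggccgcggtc

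The values are MAS5 signals, a linear intensity that the Affymetrix software computes per probe set, rescaled here so that all 8 arrays share 1 trimmed mean. Median signals per array lay between 172 and 207. Lama2, the gene of laminin α2, was read first as a check of the labels. Its probe set was at 270 ± 46.1 in dystrophic and 846 ± 101 in normal pools (SD, n = 4 each; log2 difference -1.60, limma adjusted p = 8.91e-04), and where its probes lie relative to the dy mutation is not given in the sources used here. Along the main axis of variation between arrays, dystrophic replicate 3 was the outermost array on 1 side and normal replicate 4 on the other. Poly-A spike-in controls, added before labelling, divided the arrays into 3 levels, with replicate 1 of each group highest, replicate 3 of each in the middle and replicates 2 and 4 of each lowest. The labels do not say what these levels stand for. All 10 skeletal muscle markers, among them Ckm, Des and Ttn, were bright enough to be tested, which does not tell diaphragm from other skeletal muscles. Liver markers summed to 60982 in dystrophic replicate 3 and to between 1674 and 7288 in the other 7 pools.

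None of the 19 tested actin and tropomyosin probe sets passed the test in dystrophic against normal diaphragm. limma called 0 of 19 at an adjusted p under 0.05, and the lowest adjusted p was 0.393. Over all 13575 tested probe sets 0.494% were called, 0.457% as higher and 0.0368% as lower in dystrophic pools, so a count of 0 in 19 lies near the background. At an unadjusted p under 0.05 there were 2 of 19, both Tpm3 and both higher in dystrophic pools, beside 9.72% of all tested probe sets, 5.6% higher and 4.13% lower. The groups did not overlap for the same 2, against 6.4% of all tested probe sets, with 3.87% higher and 2.53% lower in dystrophic pools. A log2 difference here is dystrophic minus normal on the log2(signal + 16) scale, where the added 16 damps the noise of dim probe sets. The 15 muscle class probe sets had a median log2 difference of 0.087, with 10 above 0 and 5 below. The 10 of these other than Tpm3 had a median of -0.0061, with 5 above 0 and 5 below. The 4 cytoplasmic class probe sets had a median of 0.084, with 3 above 0 and 1 below. The 3 Actb controls are not among these 4, and when kept in the fit all lay below 0, from -0.098 to -0.024. The median over all tested probe sets was -0.012. The SD within groups of a single array's median deviation was 0.11 for the muscle and 0.15 for the cytoplasmic class. This is a spread of single arrays, not the error of a difference between group means, and the class medians were not tested. For 15 of the 19 probe sets the 95% interval lay wholly within a 2-fold change either way. The other 4, of Actc1, Actb, Tpm1 and Tpm3, had intervals that reached past it.

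**Figure D1:**
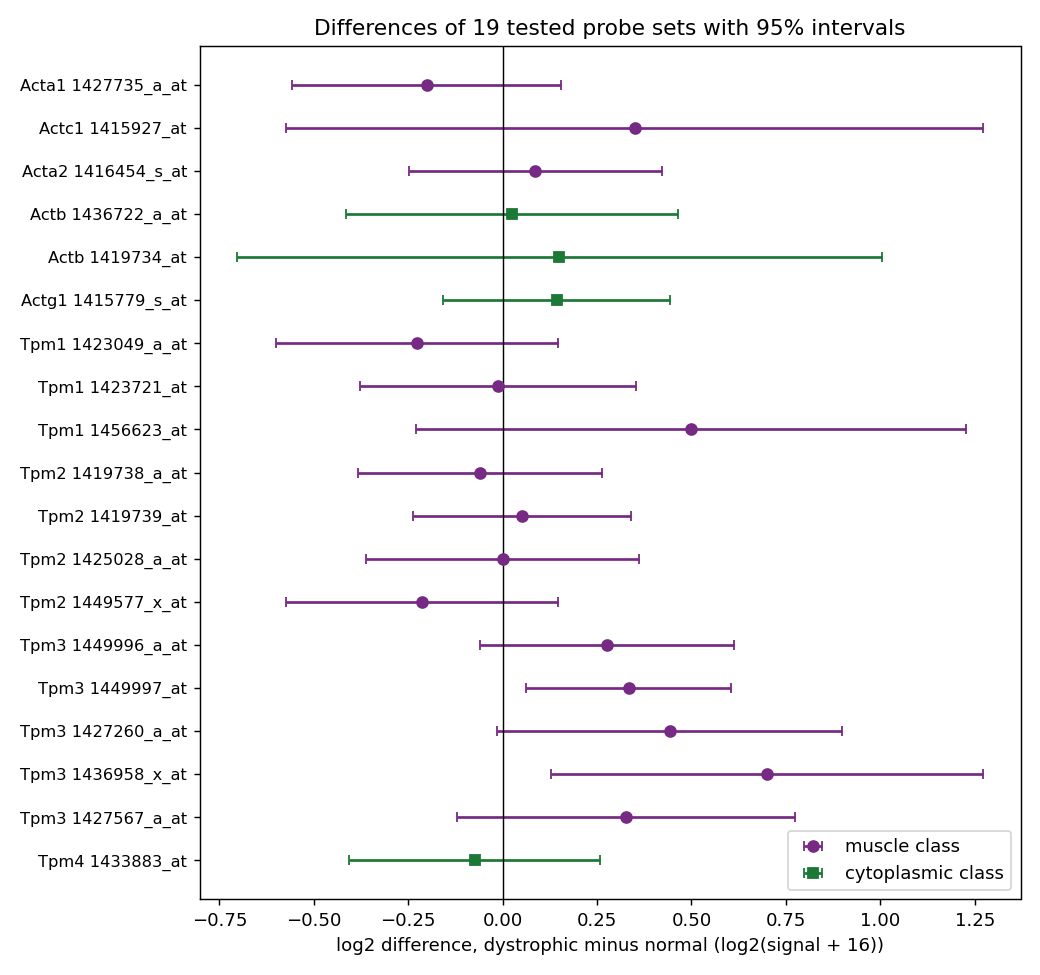
Log2 difference, dystrophic minus normal, of the 19 tested probe sets, 1 row each, with points for the estimate and bars for the 95% interval of the limma fit, circles for the muscle class and squares for the cytoplasmic class. The intervals of 17 probe sets include 0, and the 2 that do not, Tpm3 1449997_at and Tpm3 1436958_x_at, did not pass after adjustment over all probe sets.

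**Figure D2:**
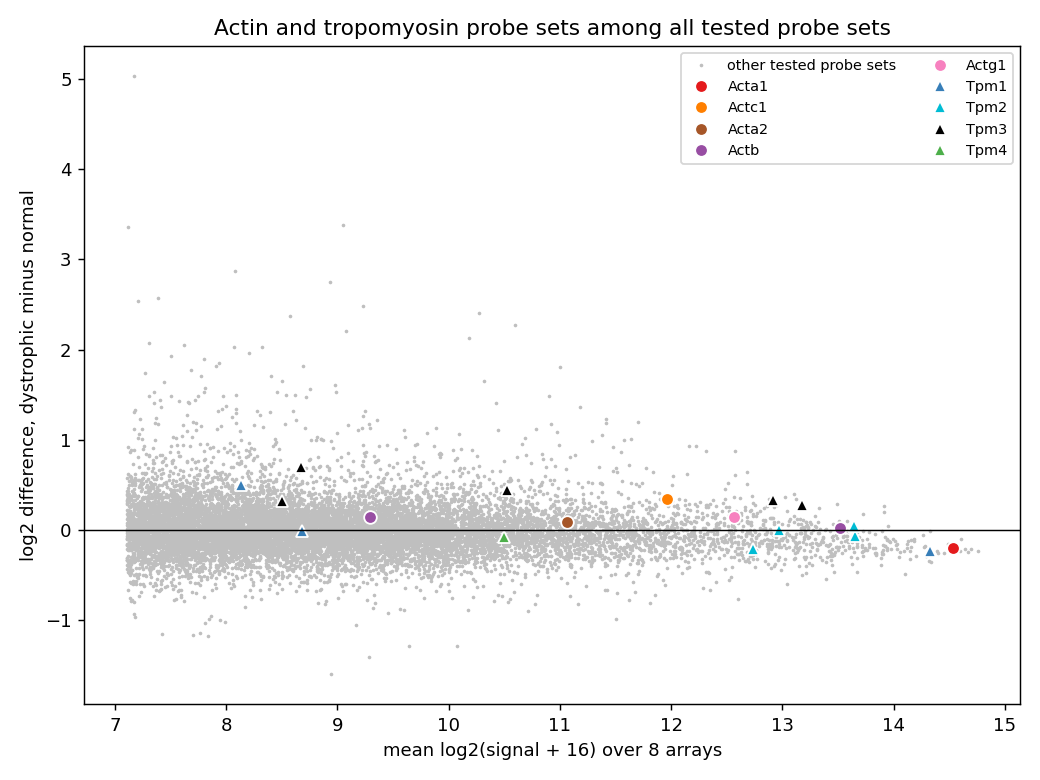
Log2 difference, dystrophic minus normal, against mean log2(signal + 16) over the 8 arrays, with grey points for the other tested probe sets, coloured circles for actins and coloured triangles for tropomyosins. The 19 actin and tropomyosin probe sets lie between -0.23 and 0.70, within the band of the other probe sets of like brightness.

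Acta1, skeletal actin, read by probe set 1427735_a_at, had a signal of 25353, 22068, 21097 and 20104 in dystrophic pools 1 to 4, against 23595, 19666, 26855 and 33284 in normal pools 1 to 4. The highest value was normal pool 4, and the groups overlapped. Its means were 22155 ± 2278 in dystrophic and 25849.7 ± 5762 in normal pools (SD, n = 4 each), with a log2 difference of -0.20 (95% interval -0.56 to 0.16, limma adjusted p = 0.754). The interval in folds is 0.679 to 1.11. Without normal replicate 4 the difference was -0.071, and under quantile normalization it turned to 0.022 (adjusted p = 0.946), so it has no settled direction. The difference by spike-in level was 0.10 between the replicate 1 arrays, -0.35 between the replicate 3 arrays and -0.28 between the arrays of replicates 2 and 4. Acta1 was one of 40 probe sets with a mean of at least 14 on the log2 scale, and all 40 lay below 0, with a median of -0.22. The median signal of those 40 was 28795 in normal replicate 4 and between 17208 and 21171 in the other 7 arrays, so the sign of Acta1 was shared by every probe set of its brightness. Without normal replicate 4, 36 of the 40 lay below 0, with a median of -0.074. Under quantile normalization 19 of the 40 lay below 0, with a median of 6.8e-04.

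Actc1, cardiac actin, is the isoform that skeletal fibres use before Acta1. The signal of Actc1 1415927_at was 2548, 6359, 4661 and 5315 in dystrophic pools 1 to 4, against 1316, 5084, 5923 and 3819 in normal pools 1 to 4. Replicate 1 was the lowest pool in each group, and the other dystrophic pools, at 4661 to 6359, overlapped the other normal pools, at 3819 to 5923. The means were 4721 ± 1608 in dystrophic and 4035 ± 2009 in normal pools (SD, n = 4 each), and the log2 difference was 0.35 (95% interval -0.57 to 1.27, limma adjusted p = 0.852). The interval in folds, 0.672 to 2.41, is among the widest of the members. By spike-in level the difference was 0.95 between the replicate 1 arrays, -0.34 between the replicate 3 arrays and 0.40 between the arrays of replicates 2 and 4. Without normal replicate 1 it was -0.12 (adjusted p = 0.917). With the spike-in level as a block the standard error was 0.20, against 0.42 without it, and the adjusted p was 0.492. The 2 arrays with low Actc1 were also the 2 with the highest spike-in signals, at 588 in dystrophic replicate 1 and 543 in normal replicate 1. The part of that level in the Actc1 values was not tested.

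Acta2, smooth muscle actin, was read by 1 tested probe set, 1416454_s_at, whose suffix _s_at marks probes shared by transcripts of more than 1 gene, so related actins may contribute to it. It read 2198, 1752, 2878 and 2063 in dystrophic pools 1 to 4, against 2267, 1988, 1919.5 and 2072 in normal pools 1 to 4. Dystrophic pool 3 stood above the other 7, which lay at 1752 to 2267, and the means were 2223 ± 475 in dystrophic and 2062 ± 151 in normal pools (SD, n = 4 each). The log2 difference was 0.087 (95% interval -0.25 to 0.42, limma adjusted p = 0.909), and it was -0.044 without dystrophic replicate 3. That pool is also the one with liver transcripts at a summed signal of 60982 over 8 genes, beside 2216 to 7288 in the other dystrophic pools and 1674 to 4302 in normal pools, and their part in the Acta2 value was not tested. The summed signal of smooth muscle and pericyte markers over 9 genes was 6588 in dystrophic pool 3, the lowest of all 8 pools. It was 8770 to 11027 in the other dystrophic and 8300 to 11356 in normal pools. Rgs5, the brightest of the 9, ranged from 2307 to 6308 over the dystrophic pools, so it weighs most in that sum. Tagln ranged only from 458 to 492 over the same pools. The second Acta2 probe set, 1456658_at, read 85.3, 38.9, 54.6 and 39.7 in dystrophic pools and 94.2, 45.3, 31.5 and 28.8 in normal pools, too dim to be tested, with replicate 1 highest in each group. In tissue RNA, fewer cells of a type and less RNA per cell cannot be told apart.

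Actb, the β actin of the cytoskeleton, had 2 tested probe sets. The brighter, 1436722_a_at, read 10828, 10697, 14856 and 11365 in dystrophic pools 1 to 4, against 8057, 11439, 16554 and 11957 in normal pools 1 to 4. Normal pool 3 was highest and normal pool 1 lowest, with every dystrophic pool between them. The means were 11937 ± 1968 in dystrophic and 12002 ± 3493 in normal pools (SD, n = 4 each), with a log2 difference of 0.025 (95% interval -0.41 to 0.46, limma adjusted p = 0.984). The dimmer, 1419734_at, read 679, 697, 353 and 1026 in dystrophic pools 1 to 4, against 912, 769, 649.9 and 244 in normal pools 1 to 4. Its difference was 0.15 (95% interval -0.70 to 1.00, limma adjusted p = 0.945). Its lowest pools, normal 4 and dystrophic 3, are the outermost arrays on the main axis of variation. Over the 8 arrays Pearson's r between these 2 probe sets was -0.43, given as a description without a test. Both carry the Actb symbol. The 3 Actb controls read different parts of the transcript. The 5′ control lay at 11087 to 14015 in dystrophic and 11355 to 15781 in normal pools, and the 3′ control at 9873 to 13282 in dystrophic and 9462 to 15326 in normal pools. The middle control varied more, with 5035, 5040, 9351 and 6403 in dystrophic and 3494, 6783, 11118 and 6156 in normal pools. It was highest in replicate 3 of each group, and lowest in normal replicate 1 and in dystrophic replicates 1 and 2. Kept in the fit, the 3 controls had log2 differences of -0.028 for the 5′, -0.024 for the middle and -0.098 for the 3′ control, with limma adjusted p of 0.973, 0.991 and 0.906.

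Actg1, γ actin, on probe set 1415779_s_at, read 5785, 6888, 6916 and 5871 in dystrophic pools 1 to 4, against 5028, 5059, 6582 and 6482 in normal pools 1 to 4. Its 4 dystrophic pools lay within 5785 to 6916 and its normal pools within 5028 to 6582. The log2 difference was 0.14 (95% interval -0.16 to 0.44, limma adjusted p = 0.799), and it was above 0 at each spike-in level, at 0.20 for replicate 1, 0.071 for replicate 3 and 0.15 for replicates 2 and 4. The interval leaves room for a rise up to 1.36-fold. This probe set also has the suffix _s_at. Tpm4, which makes a cytoskeletal tropomyosin, on probe set 1433883_at, read 1179.5, 1622, 1461 and 1339 in dystrophic pools 1 to 4, against 1173, 1474, 1529 and 1739 in normal pools 1 to 4, and its difference was -0.074 (95% interval -0.41 to 0.26, limma adjusted p = 0.927). The groups overlapped for each cytoplasmic probe set.

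**Figure D3:**
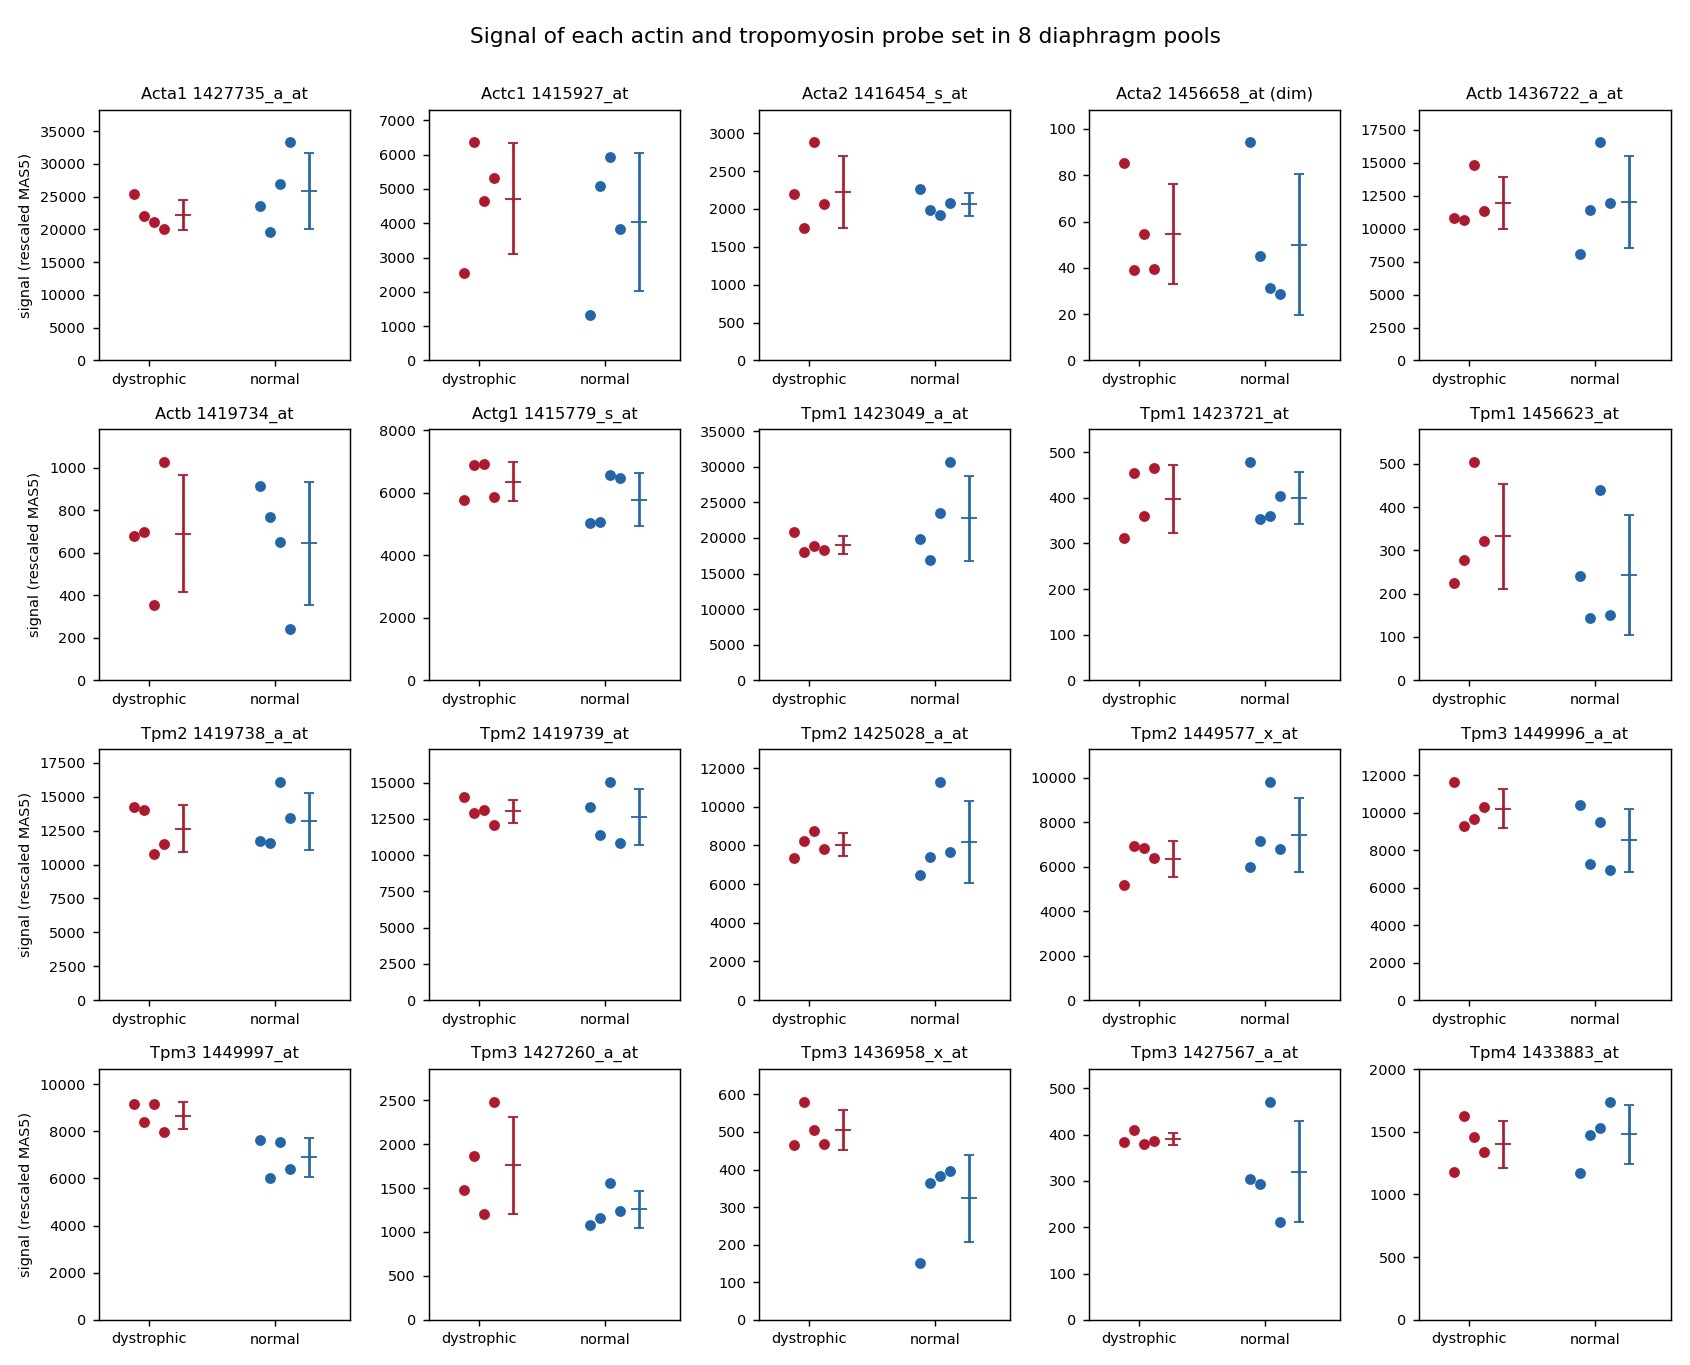
Rescaled MAS5 signal of 20 actin and tropomyosin probe sets, the 3 Actb controls left out, with 1 point per pool (replicates 1 to 4 from left to right), dystrophic in red and normal in blue, and a bar for mean ± SD (n = 4). The groups overlap in every panel other than Tpm3 1449997_at, at 7963 to 9157 in dystrophic and 6001 to 7635 in normal pools, and Tpm3 1436958_x_at, at 466 to 580 in dystrophic and 151 to 397 in normal pools.

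Tpm1, the α-tropomyosin gene, had 3 tested probe sets that did not share a direction. The bright one, Tpm1 1423049_a_at, read 20786, 17976, 18927 and 18274 in dystrophic pools 1 to 4, against 19844, 16934, 23522 and 30661 in normal pools 1 to 4. As with Acta1, normal pool 4 was highest, and the dystrophic pools lay in a narrow range. The means were 18991 ± 1261 in dystrophic and 22740.3 ± 5929 in normal pools (SD, n = 4 each), and the log2 difference was -0.23 (95% interval -0.60 to 0.15, limma adjusted p = 0.734). It was -0.071 without normal replicate 4 and 0.0047 under quantile normalization, so its direction was not stable either. The dimmer probe sets, which may read other Tpm1 products, were 1423721_at at 312 to 465 in dystrophic and 354 to 478 in normal pools, and 1456623_at at 225 to 504 in dystrophic and 143 to 440 in normal pools. Their differences were -0.012 (95% interval -0.38 to 0.35, limma adjusted p = 0.992) and 0.50 (95% interval -0.23 to 1.23, limma adjusted p = 0.688). Over the 8 arrays Pearson's r between the 3 probe sets of Tpm1 was -0.11, -0.19 and 0.0067, given as a description without a test.

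Tpm2, β-tropomyosin, had 4 probe sets, 2 above 0 and 2 below. The brightest, 1419738_a_at, read 14262, 13990.1, 10812 and 11530.0 in dystrophic pools 1 to 4, against 11728, 11578, 16095 and 13426 in normal pools 1 to 4, with a difference of -0.059 (95% interval -0.38 to 0.26, limma adjusted p = 0.942). The other 3 had differences of 0.050 for 1419739_at, 8.1e-05 for 1425028_a_at and -0.21 for 1449577_x_at, with limma adjusted p of 0.945, 1.00 and 0.743. Their 95% intervals together spanned -0.57 to 0.36. Normal pool 3 was the highest of the 8 pools for each Tpm2 probe set, from 9812 to 16095. The suffix _x_at marks probes that can also bind unrelated sequences.

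Tpm3, the tropomyosin gene of slow fibres that also makes cytoskeletal forms, had 5 tested probe sets. All 5 had a higher mean in dystrophic pools, with log2 differences from 0.28 to 0.70 and a median of 0.33, and 0 of the 5 passed. Of all tested probe sets 47.7% lay above 0. The 5 probe sets read the same RNA of the same pools, so they are not 5 independent measurements. They did not all run together either. Between pairs of them Pearson's r over the 8 arrays lay from -0.048 to 0.85. Within groups it lay from -0.70 to 0.80, given as a description without a test. Probe set 1449997_at read 9157, 8409.7, 9146 and 7963 in dystrophic pools 1 to 4, against 7635, 6001, 7556 and 6407 in normal pools 1 to 4. Every dystrophic pool lay above every normal pool. The means were 8669 ± 586 in dystrophic and 6900.0 ± 821 in normal pools (SD, n = 4 each), with a log2 difference of 0.33 (95% interval 0.063 to 0.60, limma adjusted p = 0.393). The exact two-sided permutation p = 0.0286 is the smallest that 4 against 4 allows. Any groups of 4 that do not overlap give it, so it restates the lack of overlap and is no further support. By spike-in level the difference was 0.26 between the replicate 1 arrays, 0.27 between the replicate 3 arrays and 0.40 between the arrays of replicates 2 and 4.

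Probe set Tpm3 1436958_x_at read 466, 580.4, 505 and 468 in dystrophic pools 1 to 4, against 151, 363, 383 and 397 in normal pools 1 to 4. Its groups did not overlap either, and its normal pool 1 lay far below the other 3. The difference was 0.70 (95% interval 0.13 to 1.27, limma adjusted p = 0.397), and 0.39 without normal replicate 1. By spike-in level it was 1.53 between the replicate 1 arrays, 0.38 between the replicate 3 arrays and 0.44 between the arrays of replicates 2 and 4. The brightest Tpm3 probe set, 1449996_a_at, read 11638, 9273, 9637 and 10293 in dystrophic pools 1 to 4, against 10391, 7274, 9497 and 6931 in normal pools 1 to 4, with a difference of 0.28 (95% interval -0.060 to 0.61, limma adjusted p = 0.607). Normal pool 1 lay among the dystrophic pools there. Probe set 1427260_a_at had 1482, 1866, 1205 and 2482 in dystrophic pools 1 to 4, against 1077, 1155, 1554 and 1238 in normal pools 1 to 4, with a difference of 0.44 (95% interval -0.014 to 0.90, limma adjusted p = 0.527). Probe set 1427567_a_at had 385, 409, 379.7 and 386 in dystrophic pools 1 to 4, against 304, 294, 471 and 210.5 in normal pools 1 to 4, with a difference of 0.33 (95% interval -0.12 to 0.77, limma adjusted p = 0.661). Its dystrophic pools lay within 380 to 409, and its normal pools within 210.5 to 471. Between the replicate 3 arrays the last 2 probe sets turned to -0.36 and -0.30. All 5 differences stayed above 0 in each of the 23 other fits across all probe sets, and none passed in any of them, with a lowest adjusted p of 0.175.

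Arrays differed along lines other than genotype for many of these probe sets. Of the 19 tested, 6 were lowest in replicate 1 of both groups and 3 were highest of all pools in normal replicate 4. Another 6 were highest in normal replicate 3, of which 4 were the Tpm2 probe sets. For 16 of the 19 the normal pools varied more than the dystrophic pools, by the ratio of SD to mean. For Acta1 that ratio was 10.3% in dystrophic and 22.3% in normal pools, and for the bright Tpm1 probe set 6.64% in dystrophic and 26.1% in normal pools. For Actc1 it was 34.1% in dystrophic and 49.8% in normal pools. The shares over all tested probe sets are not given here, so the counts above are not read as traits of the members.

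**Figure D4:**
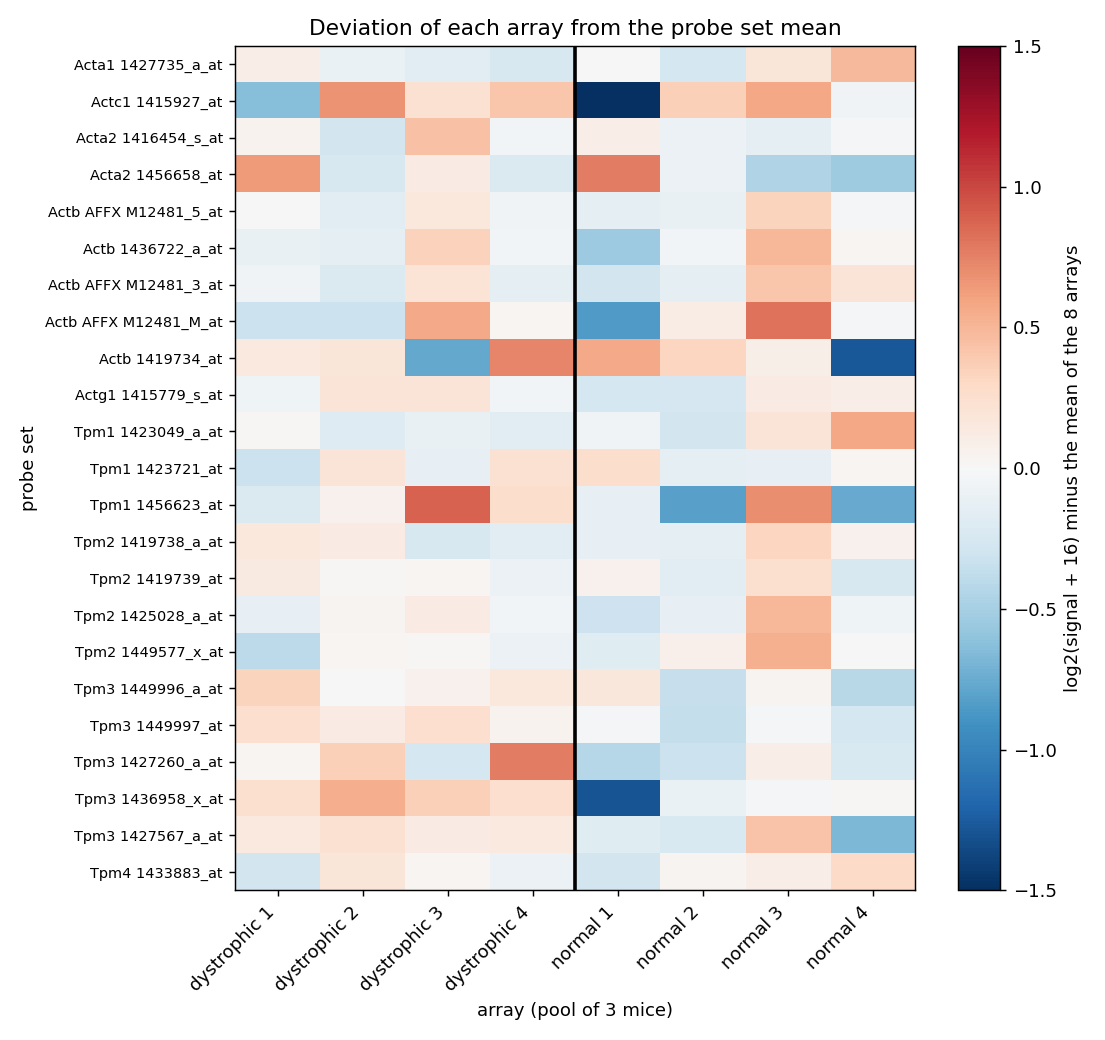
Deviation of each array from the probe set's mean over 8 arrays, in log2(signal + 16), for all 23 probe sets (rows) and 8 arrays (columns, dystrophic 1 to 4 left of normal 1 to 4), red above and blue below the mean, with the colour scale ending at 1.5 either way. Actc1 and the middle Actb control are blue in replicate 1 of both groups, Acta1 and Tpm1 1423049_a_at are reddest in normal 4, and the 5 Tpm3 rows are mostly red on the left.

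The genes whose levels ran most closely with each member were ranked by Pearson's r over the 8 arrays among 7233 other genes, as a description, since the highest of so many is high by selection. Acta1 ran closest with Tpm1 (r = 0.97, Spearman's rho 0.93), with Ckm, muscle creatine kinase (r = 0.97, rho 0.86), and with Phpt1, a histidine phosphatase (r = 0.97, rho 0.95). Without normal replicates 3 and 4, the arrays farthest from the median, these were 0.89, 0.93 and 0.88. Actc1 ran closest with Pnrc2, Zmym5 and Foxn2 (r = 0.96, 0.95 and 0.95), and without the replicate 1 arrays these were 0.34, 0.91 and 0.46. Acta2 ran closest with Serpina10, Apoh and Cyp2c23 (r = 0.93 each), and without dystrophic replicates 2 and 3 these were 0.43, 0.64 and 0.94. Apoh, apolipoprotein H, is a liver product. Actb ran closest with Sp1, Ago2 and Rnd3, and Actg1 with Calml4, BC028528 and Lxn, at r from 0.92 to 0.98. Tpm1 ran closest with Acta1, Ndufb9 and Mb, the last being myoglobin, at 0.97 each, and Tpm2 with Dedd, Pfkm and Rock1 at 0.91 to 0.92. Tpm3 ran closest with Cx3cl1 (r = 0.99), a membrane-bound chemokine, and with Ssr4 and Sec61b, parts of the protein import machinery of the endoplasmic reticulum (r = 0.97 and 0.96). Tpm4 ran closest with Ddx10, Eea1 and Pigc at r of 0.96 each.

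Proteins that work with the thin filament were read beside the members. Of 15 tested thin filament partners limma called 0, with 7 above 0 and a median of -0.010. The brightest, the α-actinins Actn2 and Actn3 that anchor actin at the Z-disc, were at 0.065 and 0.067, with adjusted p of 0.906 and 0.952. Of 7 troponin subunits 1 rose, Tnnt2, the fetal and cardiac troponin T, at 1.93 (SE 0.28, adjusted p = 0.0102), but its adjusted p was 0.0552 once dystrophic replicate 4 was left out. Tnnt2 averaged 78.8 in normal and 361 in dystrophic pools, and was bright enough to be tested only through its dystrophic values. Of 25 genes of cytoplasmic actin dynamics 19 lay above 0, with a median of 0.13, and 1 rose. That was Tmsb10, thymosin β10, which binds actin monomers, at 0.93 (SE 0.15, adjusted p = 0.0166), with an adjusted p of up to 0.0935, above the threshold, when dystrophic replicate 2, 3 or 4 was left out. Serum response factor, Srf, and its co-factor Mrtfa were at -0.10 and -0.092, and neither passed (adjusted p = 0.922 and 0.899). Of 12 other target genes of that factor limma called 0, with a median of 0.10. The brightest were Fhl1, at -0.11, and the immediate early gene Egr1, at 0.51, with adjusted p of 0.895 and 0.831.

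Slow fibre markers, which include the troponins that share slow filaments with Tpm3, had a median of 0.25, with 6 of 8 above 0 and 0 called. Fast fibre markers had a median of -0.23, with 1 of 10 above 0 and 0 called, and skeletal muscle markers a median of -0.21, with 0 of 10 called. These lists overlap: the fast and skeletal lists share Myh1, Myh2, Myh4 and Mylpf, and the slow and fast lists hold genes of the troponin list. Normal replicate 4 had the highest summed signal of the fast list, 252169, against 155770 to 172791 in dystrophic and 160294 to 191853 in the other normal pools. The brightest slow genes, Myl2 and Atp2a2, were at -0.10 and -0.24, the brightest fast genes, Atp2a1 and Tnni2, at -0.23 and -0.25, and the brightest skeletal muscle genes, Ckm and Mb, at -0.21 and -0.23. None of these 6 passed, with adjusted p from 0.657 to 0.896. Myl2 and Atp2a2 were the only slow markers below 0, and the rest of that list lay between 0.066 for Myl3 and 0.38 for Tnni1.

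Markers of regenerating fibres rose while Actc1 did not pass. All 8 rose, a list that was chosen with its behaviour in these samples known, so the count is no independent evidence. The largest was Myh3, embryonic myosin, at 629 to 1114 in dystrophic and 7.9 to 11.2 in normal pools. Its normal values lie below the added 16, so the size of its log2 difference depends on that offset (5.03 with 16, where limma gave an adjusted p = 7.02e-07, and 3.58 with 64). The next were Myl4, an embryonic light chain, at 3.38 (SE 0.20, adjusted p = 1.44e-05), and Myh8, perinatal myosin, at 2.88 (SE 0.36, adjusted p = 0.0053). Their summed signal over the 8 genes was 4684 to 7779 in dystrophic and 1116 to 1202 in normal pools. The difference between these genes and Actc1 was not tested. The number of markers called fell to between 4 and 7 when 1 array was left out, and Myh3 fell below the brightness filter when any 1 dystrophic array was left out, since it passed only through its dystrophic values. Tnnt2, Myh8, Ncam1 and Mybph, at normal means of 78.8, 87.4, 109 and 114, also passed that filter only through their dystrophic values. Fibroblast markers had a median of 0.58 with 3 of 10 called, Postn, Lum and Col1a2, at 2.41, 1.24 and 0.88 (adjusted p = 0.00738, 0.00405 and 0.0167). Macrophage markers had a median of 0.75 with 4 of 9 called, the largest being Mpeg1, Lgals3 and Ctss, at 2.03, 1.56 and 1.33 (adjusted p = 0.00436, 0.00688 and 0.00451). Mpeg1, at a normal mean of 124, likewise passed the brightness filter only through its dystrophic values. Col1a2 missed the threshold, at up to 0.0784, when normal replicate 1 or any of dystrophic replicates 2 to 4 was left out, and the number of macrophage calls fell to between 3 and 4. The summed fibroblast signal was 44558 to 56355 in dystrophic and 29236 to 37042 in normal pools, and the macrophage sum 10063 to 11506 in dystrophic and 5698 to 7775 in normal pools. The cytoplasmic actins, which such cells also make, were at 0.025 for the brighter Actb probe set and 0.14 for Actg1 in the same pools, and the part of these cells in the member values was not tested. Smooth muscle and pericyte markers, led in brightness by Rgs5 and Smtn at -0.25 and -0.19, had a median of -0.14 with 0 of 9 called. Endothelial markers, led by Cd34 and Eng at 0.23 and -0.41, had a median of -0.11 with 0 of 8 called. The 3 tested cardiac markers of 8 on the array, led by Sln at 0.20 and Hamp at 0.85, had 0 called. The 8 tested liver markers, led by Alb and Apoa2 at 2.27 and 2.20 (adjusted p = 0.252 and 0.456), had 0 called.

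**Figure D5:**
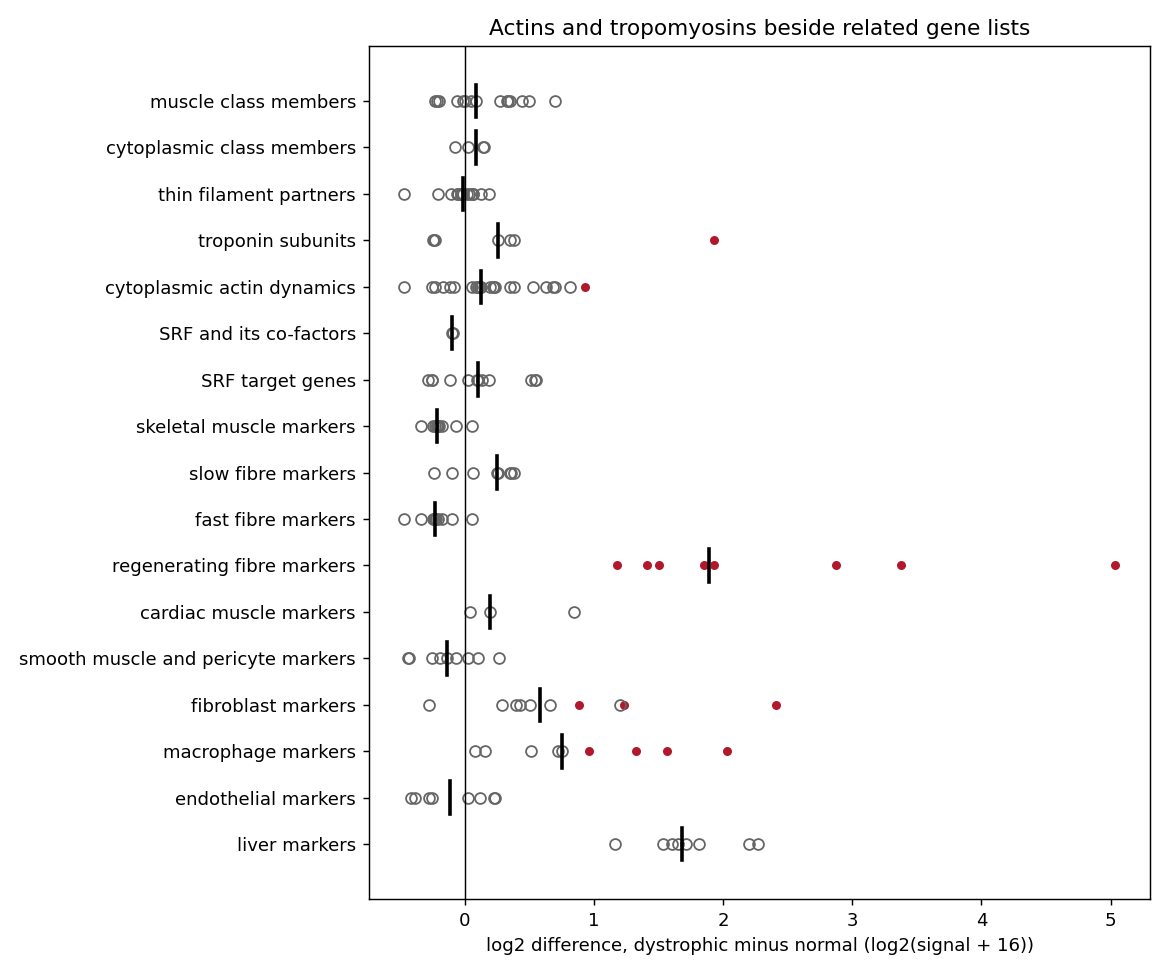
Log2 difference, dystrophic minus normal, of single probe sets (circles) in the muscle and cytoplasmic classes of actins and tropomyosins and in 15 related gene lists, filled red where limma's adjusted p was under 0.05, with a black bar for each median. Both member classes centre near 0 with no filled point, while all 8 regenerating fibre markers are filled, the lowest at 1.18.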

How the data were processed

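Diaphragm RNA of 4 dystrophic and 4 normal pools was measured on 8 Affymetrix arrays. The authors deposited 1 table of linear signal intensity, which per the submitters' processing notes is MAS5 output. The MAS5 version is not given in the sources used here. As deposited, 7 arrays had a 2% trimmed mean of 500.2, to rounding, and normal replicate 4 had 400.2, so each array was rescaled to 487.7. Control probe sets and the lowest 40% by mean log2(signal + 16) were left out, which left 13575. The test was limma's moderated comparison of the groups (version 3.58.1, R 4.3.3, with a trend of variance on intensity), two-sided, with Benjamini-Hochberg adjustment over all 13575 and a threshold of 0.05. Tested on simulated data for this comparison, with 13575 probe sets and 50 altered at each size, it recovered 12 at 1.5-fold, 31 at 2-fold, 43 at 4-fold and 39 at 8-fold, with 6 false among 131 calls. Altered probe sets that fell below the brightness filter, applied after the changes were added, count there as not recovered. The 95% intervals use limma's moderated standard errors. Array number limits the precision.

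Symbols came from the platform annotation, updated through Entrez identifiers with RefSeq (20351 of 20380 matched). A gene outside the members was represented by its brightest probe set. The members and lists were chosen with earlier results of these data known. The text names Lama2, every member probe set and, from each list, up to 3 called genes by size or else the 2 brightest. Likeness used the brightest probe set per gene. Alternatives covered offsets of 1 and 64, scaling, filters, the variance prior, array weights, blocks, arrays left out, a threshold of 0.01 and the class of Tpm3 and Acta2. Arrays were assigned to spike-in levels at gaps over 0.5 in the log2 geometric mean of 24 poly-A controls. Motifs and figures used Python 3.11.15 with matplotlib 3.10.9.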

Additional observations from a re-analysis of the deposited data

Results flagged for a closer look

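Within the normal group, Tpm3 probe set 1436958_x_at read 151 in replicate 1 and 363 to 397 in the other 3 pools. The gap to the nearest pool was 0.904 of the group's range on the log2 scale, above Dixon's 95% critical value for 4 samples. This was the only such case in 46 groups of 4 that were examined, where chance gives about 1 in 20.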

How the results depend on the processing

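No member probe set passed under any alternative that was run, and the count of member calls stayed at 0, also for 1 probe set per gene. Probe sets changed at the threshold numbered 67 in all, and there were 127 with array weights, 105 with the replicate block, 114 with the spike-in level as a block, 6 among the arrays of replicates 2 and 4, 31 without normal replicate 4 and dystrophic replicate 3 together, and 24 at a threshold of 0.01. With single arrays left out it ranged from 25 to 61, with 34, 29 and 25 without dystrophic replicate 2, 3 or 4. The same replicate number was not taken as a pairing, since only 2 of 4 dystrophic and 2 of 4 normal arrays correlated best with their own number. Deviations of same-numbered arrays correlated at 0.48, -0.046, 0.15 and 0.13, against -0.25 to 0.16 for arrays of different numbers. The 0.48 of replicate 1 lay above that range. Same-numbered arrays did share a spike-in level, so a link between them is not excluded. The replicate block moved no member across the threshold. The muscle class median of 0.087 was 0.27 among replicates 2 and 4 and -0.30 between the replicate 3 arrays. It was -0.0061 with Tpm3 counted as cytoplasmic, and 0.047 to 0.18 with single arrays left out. The cytoplasmic median of 0.084 was -0.11 between the replicate 3 arrays, 0.28 with Tpm3 counted as cytoplasmic, and -0.035 to 0.20 with single arrays left out. Of 455 member values from tests under alternatives, 40 changed sign and 0 passed. Of 38 differences between single arrays of replicate 1 or of replicate 3, with no test, 15 had the other sign. Under quantile normalization Acta1 was at 0.022, Tpm1 1423049_a_at at 0.0047 and Tpm2 1419738_a_at at 0.076. On the values as deposited Tpm1 1423721_at was at 0.065, Tpm2 1419738_a_at at 0.021 and Tpm4 at 0.0061. Tpm2 1425028_a_at was at -7.7e-05 with an offset of 64 and -0.014 after a 75th percentile shift. With array weights Actb 1436722_a_at was at -0.067, Tpm1 1423721_at at 0.12 and Tpm2 1425028_a_at at -0.052. Among replicates 2 and 4, Acta2 was at -0.094, Actb 1436722_a_at at -0.085, Tpm1 1423721_at at 0.27 and Tpm2 1419738_a_at at 0.027. Without normal replicate 4 and dystrophic replicate 3 together, Acta2 was at -0.041, Actb 1436722_a_at at -0.071, Tpm1 1423721_at at 0.037, and Tpm2 1419738_a_at, 1419739_at and 1425028_a_at at 0.025, -0.023 and -0.063. With single arrays left out, values that changed sign ranged from -0.12 to 0.62 for Actc1 1415927_at, -0.044 to 0.19 for Acta2 1416454_s_at, -0.15 to 0.19 for Actb 1436722_a_at, -0.25 to 0.43 for Actb 1419734_at, -0.090 to 0.094 for Tpm1 1423721_at, -0.12 to 0.040 for Tpm2 1419738_a_at, -0.020 to 0.14 for Tpm2 1419739_at, -0.10 to 0.16 for Tpm2 1425028_a_at and -0.18 to 0.0082 for Tpm4 1433883_at. The cause of these changes was not tested.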
